A study of Mus musculus with 25 samples.

Results

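The nuclear genes for subunits of the mitochondrial respiratory chain and ATP synthase were followed through macrophages and neutrophils of injured muscle and through cultured macrophages treated with RvD2 (resolvin D2), which is a lipid signal derived from docosahexaenoic acid. Members were chosen by symbol (Nduf, Sdh, Uqcr, Cyc1, Cox4i to Cox8 and Atp5 genes, with no pseudogene rows) and by a level of at least 50 normalised counts in any column of a table. Of 38087 genes, 85 symbols matched. In muscle, 79 passed the level, namely 36 of complex I, 4 of complex II, 9 of complex III, 13 of complex IV and 17 of complex V. In the cultured macrophages 78 passed, 77 of them in common, so that 80 genes were members in at least one table.

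Just inside the level in muscle were Cox6a2, with at most 52.6 normalised counts, and Cox7a1, with at most 73.2. Atp5s (at most 32.2) and Cox6b2 (at most 30.2) lay just outside. In the cultured macrophages Atp5s was inside with at most 55.4, while Cox4i2 (at most 20.6) and Cox6a2 (at most 20.0) lay outside. Cox7b2 and Cox8c were listed at 0 throughout. Genes were assigned to complexes by symbol alone, so every Nduf gene, Ndufa4 among them, was counted under complex I. The symbol rule also took in names that are not plain subunits. The files' Atp5sl is Dmac2 in GENCODE M21, a gene known in human cells for assembly of complex I, and their Atp5l2 is annotated there as the processed pseudogene Atp5l2-ps.

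The respiratory chain sits in the inner mitochondrial membrane. Complexes I and II pass electrons from NADH and succinate to ubiquinone, complex III passes them on to cytochrome c, and complex IV hands them to oxygen. Complexes I, III and IV pump protons, and complex V, the ATP synthase, uses the proton gradient to make ATP. Inflammatory macrophages are known to lean on glycolysis, macrophages of the repair phase on oxidative metabolism, and neutrophils hold few mitochondria. A core set of subunits is encoded in mitochondrial DNA and was not analysed here.

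All animals were C57BL/6J mice, labelled adult, male and 2 to 4 months old, and no engineered allele is named. The tibialis anterior (TA) muscle was injured with cardiotoxin (CTX), a component of snake venom that destroys fibres. Leukocytes carrying CD45 were enriched on magnetic beads, and the populations were then separated by flow cytometry. The 5 muscle groups were Ly6Ghigh neutrophils at day 1 (3 samples), Ly6Clow F4/80high macrophages at day 4 (2 samples), Ly6Chigh F4/80low macrophages at day 4 (2 samples), Ly6Clow macrophages at day 2 (3 samples) and Ly6Chigh macrophages at day 2 (3 samples). Every muscle group came from injured muscle. Bone marrow-derived macrophages (BMDM) were grown from males of 8 to 10 weeks with 10 ng/ml M-CSF, replated without it, and given 10 nM RvD2 for 4 h (3 samples) or left untreated (3 samples), so BMDM are a culture and not cells of injured tissue. Blood monocytes and day 1 Ly6Chigh cells were not analysed here.

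Each muscle value was the authors' mean of log2 normalised counts over the samples of a group. No error can be given for it, no test was possible, and no muscle difference can be weighed against replicate error. Muscle ratios are the log2 of (normalised count + 10) in one group over the other, which understates the change of low genes. A gene is called when this ratio reached 2-fold and the higher group had at least 50 normalised counts, so a call in muscle is a size and not a test. Fewer cells of a type and less RNA per cell cannot be told apart in such bulk samples.

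Summed normalised counts were 26.0 M in neutrophils and 11.9 to 12.8 M in the 4 macrophage groups, and 12.4 to 12.8 M in the BMDM libraries. Macrophage markers summed to 24076 normalised counts in neutrophils and to between 86900 (Ly6Chigh day 2) and 213633 (Ly6Clow day 4) in macrophages, and neutrophil markers to 420893 in neutrophils and 1735 to 2915 in macrophages. Ly6g, which defines the neutrophil sort, was listed at 0 in all 4 macrophage groups. Fibroblast markers stood at 23710 in Ly6Chigh cells at day 4 with 7 of 7 at 50 or more, against 244 in Ly6Chigh cells at day 2. In Ly6Clow cells the same list summed to 1708 at day 4 and 79.7 at day 2. T and NK cell markers (817) and dendritic cell markers (1308) were also highest in Ly6Chigh cells at day 4. Skeletal muscle markers summed to 952 in neutrophils, 1797 in Ly6Clow and 1041 in Ly6Chigh cells at day 4, and 383 in Ly6Clow and 309 in Ly6Chigh cells at day 2. Endothelial markers summed to at most 989, in Ly6Chigh cells at day 4. Erythroid and platelet markers summed to 283 in neutrophils, 4913 in Ly6Clow and 909.5 in Ly6Chigh cells at day 4, and 12134 in Ly6Clow and 3815 in Ly6Chigh cells at day 2. The sort itself was visible in the monocyte markers, which summed to 3631 in Ly6Clow and 37387 in Ly6Chigh cells at day 4, and to 1774 in Ly6Clow and 31006 in Ly6Chigh cells at day 2. Dividing-cell markers summed to 1666 in neutrophils, 2253 in Ly6Clow and 1207 in Ly6Chigh cells at day 4, and 1488 in Ly6Clow and 244 in Ly6Chigh cells at day 2.

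The members lie on 19 chromosomes and share no locus, so their promoters are the sequence they can have in common. RefSeq promoter windows on GRCm38.p6, from 250 bases before to 50 after the start, were found for 63 of the 80 members. They were searched on both strands for 4 motifs of factors known to drive respiratory genes. The NRF1 motif GCGCATGCG was in 8 of 63 members (12.7%), against 1.95% of 27025 genes. The YY1 motif AAGATGGC was in 9 (14.3%, against 3.19%), the GABP motif CCGGAAGT in 5 (7.94%, against 4.31%) and the ESRRA motif TCAAGGTCA in 2 (3.17%, against 0.466%). In all, 23 of the 63 members held at least one of them, and the share of all genes with any of the 4 was not computed. None of the motifs contains another, and NRF1 matches on the opposite strands can overlap. The 6 windows below cover all 5 complexes and all 4 motifs, with every match in capitals. Ndufa11, Cox6a1 and Atp5k hold NRF1, Ndufb8 holds YY1, Sdhd holds ESRRA, and Uqcr11 holds GABP and NRF1.
Ndufa11 promoter, chr17:56717512-56717811, plus strand: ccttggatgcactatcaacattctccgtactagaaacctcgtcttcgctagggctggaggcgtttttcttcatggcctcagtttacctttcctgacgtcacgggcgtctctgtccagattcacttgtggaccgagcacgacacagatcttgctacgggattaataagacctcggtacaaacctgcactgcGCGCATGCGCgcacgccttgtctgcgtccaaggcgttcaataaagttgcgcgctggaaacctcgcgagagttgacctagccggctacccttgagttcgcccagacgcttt
Ndufb8 promoter, chr19:44555393-44555692, minus strand: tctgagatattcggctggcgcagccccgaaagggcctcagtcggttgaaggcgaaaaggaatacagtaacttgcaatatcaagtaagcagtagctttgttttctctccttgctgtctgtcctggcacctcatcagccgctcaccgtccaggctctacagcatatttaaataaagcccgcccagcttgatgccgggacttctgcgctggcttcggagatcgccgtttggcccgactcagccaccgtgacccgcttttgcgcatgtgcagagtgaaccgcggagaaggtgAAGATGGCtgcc
Sdhd promoter, chr9:50603800-50604099, minus strand: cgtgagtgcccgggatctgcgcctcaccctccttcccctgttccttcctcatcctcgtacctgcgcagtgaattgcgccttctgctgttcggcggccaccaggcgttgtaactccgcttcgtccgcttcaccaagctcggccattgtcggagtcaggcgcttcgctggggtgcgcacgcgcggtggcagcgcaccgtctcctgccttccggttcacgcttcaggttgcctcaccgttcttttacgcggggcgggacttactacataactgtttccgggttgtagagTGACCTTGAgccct
Uqcr11 promoter, chr10:80406772-80407071, minus strand: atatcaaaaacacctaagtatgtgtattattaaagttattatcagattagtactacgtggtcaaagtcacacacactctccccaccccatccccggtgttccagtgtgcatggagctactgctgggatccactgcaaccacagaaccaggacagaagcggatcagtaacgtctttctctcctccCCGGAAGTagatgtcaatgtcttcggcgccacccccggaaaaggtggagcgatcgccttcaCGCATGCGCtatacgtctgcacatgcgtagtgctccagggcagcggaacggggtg
Cox6a1 promoter, chr5:115348909-115349208, minus strand: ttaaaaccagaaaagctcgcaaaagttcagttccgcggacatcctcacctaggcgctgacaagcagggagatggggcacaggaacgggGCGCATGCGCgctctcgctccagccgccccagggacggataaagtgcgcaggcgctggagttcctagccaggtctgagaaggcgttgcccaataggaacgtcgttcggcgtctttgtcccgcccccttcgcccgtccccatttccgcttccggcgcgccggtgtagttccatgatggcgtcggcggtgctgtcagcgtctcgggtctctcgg
Atp5k promoter, chr5:108434350-108434649, minus strand: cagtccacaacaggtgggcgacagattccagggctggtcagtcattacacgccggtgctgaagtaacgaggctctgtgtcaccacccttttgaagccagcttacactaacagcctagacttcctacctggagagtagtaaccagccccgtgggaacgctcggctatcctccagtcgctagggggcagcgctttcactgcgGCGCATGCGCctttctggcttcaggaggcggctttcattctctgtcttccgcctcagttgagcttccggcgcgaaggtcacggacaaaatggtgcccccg
Ndufa11 encodes a membrane subunit and Ndufb8 a membrane-arm subunit of complex I. Sdhd encodes a membrane anchor of complex II, Uqcr11 a small subunit of complex III, Cox6a1 the widely expressed form of subunit 6A of complex IV, and Atp5k the e subunit of ATP synthase. For day 4 over day 2 in Ly6Clow cells, the median log2 ratio was -0.60 for members with the NRF1 motif and -0.40 for those without, and -0.65 with and -0.39 without the YY1 motif. It was -0.26 with and -0.46 without the GABP motif, and -0.35 with and -0.45 without the ESRRA motif. In Ly6Chigh cells the medians were -0.44 with and -0.38 without NRF1, -0.46 with and -0.39 without YY1, -0.31 with and -0.39 without GABP, and -0.20 with and -0.39 without ESRRA. Members with a motif thus lay lower for 2 of the motifs and higher for the other 2 in both subsets. These medians rest on 8 members with NRF1, 9 with YY1, 5 with GABP and 2 with ESRRA. The same genes enter in both subsets, and the differences were not tested. A match is a description of these letters and was not tested as a binding site.

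Per kilobase of transcript, levels differed by complex. In Ly6Clow cells at day 4 the median was 1652 normalised counts per kilobase for 11 complex IV genes, 1037 for 15 of complex V, 1022 for 4 of complex II, 773 for 9 of complex III and 604 for 36 of complex I. Left out of these medians were the low tissue forms Cox6a2 (77.3) and Cox7a1 (83.6) of complex IV. Of complex V, Atp5sl (156), Atp5s and Atp5l2, which has no coding transcript length, were left out. The medians of complexes IV and V are therefore higher than with these low genes included. Complex IV had the highest median and complex I the lowest in all 5 muscle groups and in untreated BMDM, where complex IV stood at 1399 and complex I at 659. In Ly6Chigh cells at day 2 complex I (756) and complex II (782) were nearly level. The single gene with the highest level differed between groups. At day 2 it was Atp5b, the catalytic beta subunit of ATP synthase, with 6526 normalised counts per kilobase in Ly6Clow and 5705 in Ly6Chigh cells. At day 4 it was Cox4i1, a subunit of complex IV, with 4869 in Ly6Clow and 3917 in Ly6Chigh cells, against 3401 for Atp5b in Ly6Clow and 3703 in Ly6Chigh cells. In neutrophils it was Cox8a, another subunit of complex IV, with 4613 per kilobase. The members together held 0.177% of all normalised counts in neutrophils, 0.583% in Ly6Clow and 0.572% in Ly6Chigh cells at day 4, and 0.794% in Ly6Clow and 0.697% in Ly6Chigh cells at day 2. The 6 BMDM libraries held 0.655 to 0.684%.

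**Figure D1:**
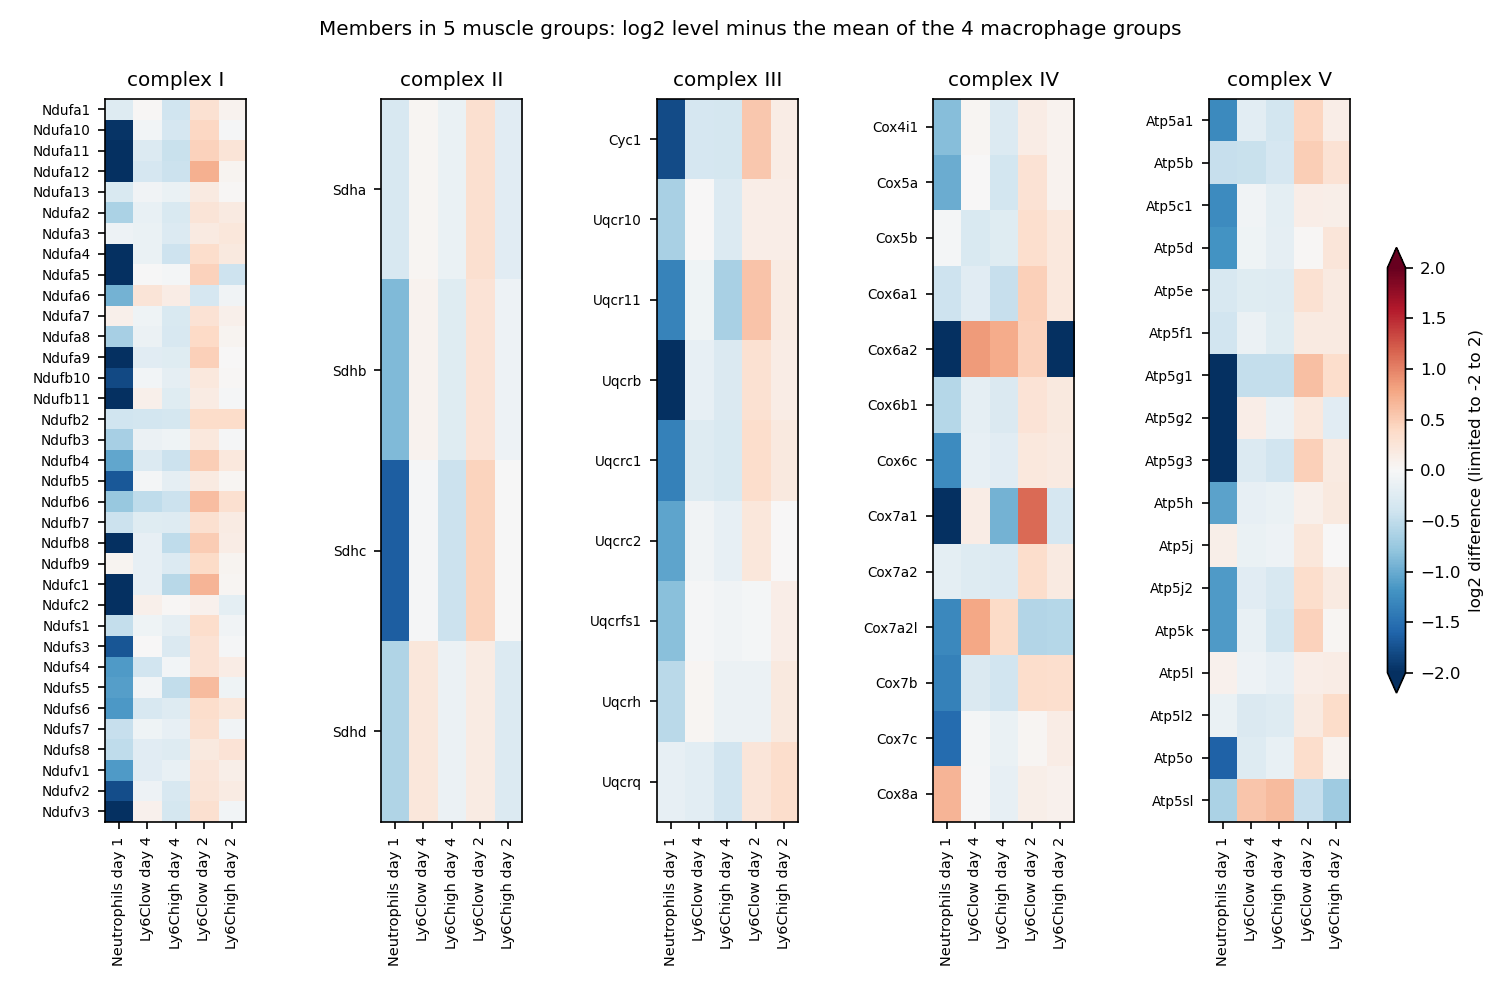
Heat map of 78 of the 79 members in 5 muscle groups, 1 panel per complex; colour gives the log2 normalised count minus the mean of the 4 macrophage groups, limited to -2 to 2. The Ly6Chigh day 4 column is mostly blue and the Ly6Clow day 2 column mostly red, with Cox7a2l and Atp5sl as rows that run the other way, and the neutrophil column is dark blue for many rows of complexes I and V.

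At day 4, set against day 2, respiratory chain genes were lower in both macrophage subsets, mostly by less than 1.5-fold. In Ly6Clow cells 71 of 79 members (89.9%) had a ratio below 0, against 50.7% of all 11560 genes compared, and the median log2 ratio was -0.44, against -0.01 for all genes. In Ly6Chigh cells 69 of 77 (89.6%) were below 0, against 51.2% of 11618 genes, with a median of -0.39 against -0.01. Large steps were few. In Ly6Clow cells 3 members were called lower (3.24% of all genes were) and 1 higher (8.08% of all genes). In Ly6Chigh cells 0 were called lower (3.74% of all genes) and 1 higher (9.67% of all genes). At 1.5-fold, 25 of 79 members were lower in Ly6Clow cells (31.6%, against 12.7% of all genes) and 13 of 77 in Ly6Chigh cells (16.9%, against 11.4%). In both subsets 68 of 79 members were lower at day 4 (86.1%, against 38.8% of 12049 genes), and 6 were higher in both (7.59%, against 39.1%).

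Complexes I, III, IV and V had similar median ratios, and complex II was nearer to 0. In Ly6Clow cells the median log2 ratio of day 4 over day 2 was -0.44 for complex I, -0.25 for complex II, -0.45 for complex III, -0.38 for complex IV and -0.45 for complex V. In Ly6Chigh cells it was -0.34 for complex I, -0.03 for complex II, -0.42 for complex III, -0.43 for complex IV and -0.40 for complex V. Complex II has only 4 genes, and the difference between complexes was not tested.

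Among complex I genes, the accessory subunits held the lowest ratios. Ndufb6, an accessory subunit of the membrane arm, had 264 normalised counts in Ly6Clow cells at day 4 and 581 at day 2, a log2 ratio of -1.11. In Ly6Chigh cells Ndufb6 had 280.2 at day 4 and 473 at day 2, a log2 ratio of -0.73. Ndufa12, an accessory subunit of the matrix arm, had 182 in Ly6Clow cells at day 4 and 375 at day 2, a log2 ratio of -1.0, with -0.45 in Ly6Chigh cells. These are 2 of the 3 members called lower in Ly6Clow cells. The 7 core subunits measured here, which carry the flavin and the iron-sulfur clusters, were all below 0 in both subsets, with the lowest ratio at -0.46 (Ndufv1) in Ly6Clow cells and at -0.52 (Ndufs8) in Ly6Chigh cells.

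Complex II, which also runs a step of the tricarboxylic acid cycle, stayed closest to level. Sdha, its flavoprotein, had 2723 normalised counts in Ly6Clow cells at day 4 and 3323 at day 2, and in Ly6Chigh cells 2413 at day 4 and 2275 at day 2. Sdhd, a membrane anchor, had a log2 ratio of 0.05 in Ly6Clow and 0.16 in Ly6Chigh cells, whereas Sdhc, the other anchor, had -0.47 in Ly6Clow and -0.42 in Ly6Chigh cells. The 2 anchors of the same complex thus had different ratios.

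In complex III, Cyc1, the cytochrome c1 that hands electrons to cytochrome c, had 758 normalised counts in Ly6Clow cells at day 4 and 1391 at day 2, a log2 ratio of -0.87, with -0.50 in Ly6Chigh cells. Uqcr11 had the lowest ratio of the complex in Ly6Chigh cells (-0.78), with 233 at day 4 and 407 at day 2. Uqcrfs1, the Rieske iron-sulfur protein, was nearly level in Ly6Clow cells (0.01) and at -0.19 in Ly6Chigh cells. All 9 genes were below 0 in Ly6Chigh cells and 7 of 9 in Ly6Clow cells, with Uqcrh, the hinge protein, highest at 0.16.

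In complex IV, the 10 genes other than Cox7a2l and the tissue forms Cox6a2 and Cox7a1 were all below 0 in both subsets. They ran from -0.71 (Cox6a1) to -0.07 (Cox7c) in Ly6Clow cells and from -0.71 (Cox7b) to -0.25 (Cox8a) in Ly6Chigh cells. Cox7a2l, also present in every group, was higher at day 4 in both subsets, as described below. In complex V the 5 genes of the catalytic F1 head were below 0 in both subsets, with medians of -0.55 in Ly6Clow and -0.44 in Ly6Chigh cells. Atp5b had the lowest ratio of the head in both, -0.94 in Ly6Clow and -0.62 in Ly6Chigh cells. Atp5a1, its alpha subunit, had 6589 normalised counts in Ly6Clow cells at day 4 and 10307 at day 2, a log2 ratio of -0.64. The 7 stalk and membrane genes were also below 0 in both subsets.

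**Figure D2:**
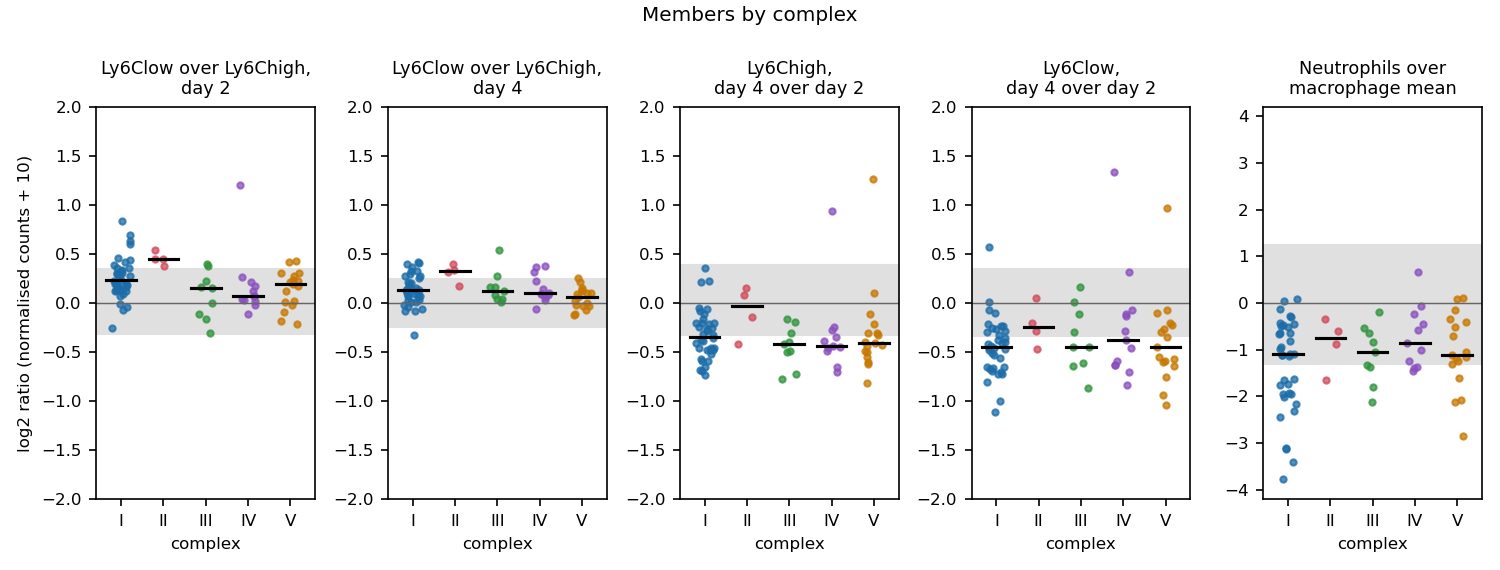
Log2 ratios of the members by complex in the 5 muscle comparisons; each point is a gene that passed the level limit of 50 in that comparison, black bars are medians and the grey band holds the middle 50% of all genes compared. Points of complexes I, III, IV and V sit around -0.4 in both comparisons of day 4 over day 2, complex II sits nearer to 0, and neutrophil ratios spread down to -3.78 on a wider axis.

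Few members ran against this direction, and 6 of 79 were higher at day 4 in both subsets (7.59%, against 39.1% of all genes). Cox7a2l, which is known to tie complexes III and IV together in supercomplexes, had 2038 normalised counts in Ly6Clow and 1564 in Ly6Chigh cells at day 4, against 800.2 in Ly6Clow and 810 in Ly6Chigh cells at day 2. Its log2 ratio of day 4 over day 2 was 1.34 in Ly6Clow cells, where it was called, and 0.94 in Ly6Chigh cells, just under the limit. Cox7a2, the subunit 7A gene it resembles, had 741 in Ly6Clow and 727 in Ly6Chigh cells at day 4, against 1125 in Ly6Clow and 995 in Ly6Chigh cells at day 2. Per kilobase, Cox7a2l stood above Cox7a2 at day 4, with 1849 against 1124 in Ly6Clow and 1418 against 1103 in Ly6Chigh cells. At day 2 it stood below, with 726 against 1706 in Ly6Clow and 734 against 1510.4 in Ly6Chigh cells. C57BL/6 mice are known to carry a shortened form of Cox7a2l, and these counts do not tell forms apart.

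Atp5sl (Dmac2) had 300.2 normalised counts in Ly6Clow and 317 in Ly6Chigh cells at day 4, against 149 in Ly6Clow and 126 in Ly6Chigh cells at day 2. Its log2 ratio was 1.27 in Ly6Chigh cells, the one member called there, and 0.97 in Ly6Clow cells. Ndufa6, a complex I accessory subunit of the LYR family, had 696 in Ly6Clow and 646 in Ly6Chigh cells at day 4, against 464 in Ly6Clow and 556 in Ly6Chigh cells at day 2. Its log2 ratio was 0.58 in Ly6Clow and 0.21 in Ly6Chigh cells. Ndufa5, an accessory subunit of the matrix arm, differed between subsets, with -0.45 in Ly6Clow and 0.35 in Ly6Chigh cells, and this difference was not tested. Ndufc2 and Sdhd completed the genes above 0 in both subsets together with Cox6a2, described below with the isoforms. In muscle Cox6a2 reached the level limit only in Ly6Clow cells at day 4. Its higher value at day 4 in those cells is therefore not independent of how members were chosen. In Ly6Chigh cells Cox6a2 lay under the limit at both times, with 48.6 at day 4 and 7.0 at day 2.

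**Figure D3:**
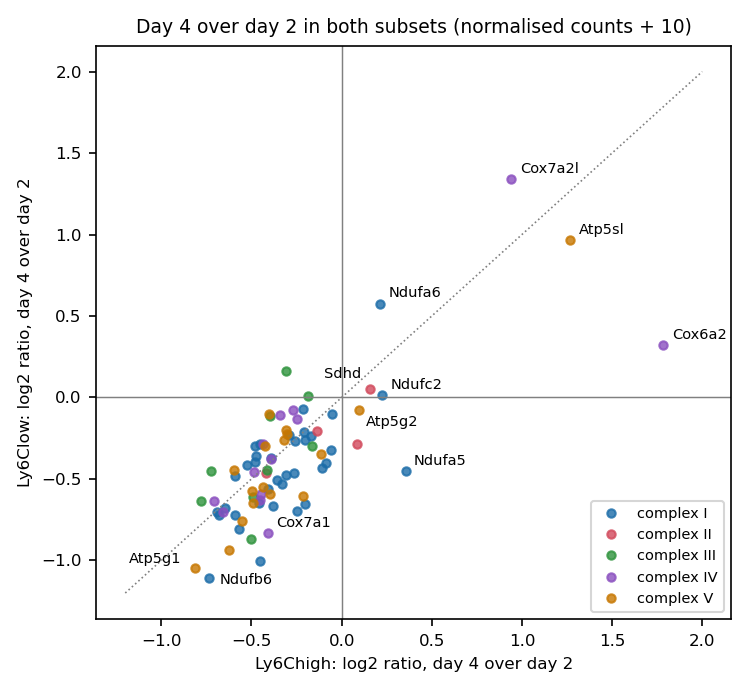
Log2 ratio of day 4 over day 2 for the 79 members, Ly6Clow cells on the vertical and Ly6Chigh cells on the horizontal axis; colours give the complex and the dotted line marks equal ratios. Most points lie to the lower left, while Cox7a2l, Atp5sl, Ndufa6 and Cox6a2 stand to the upper right. Cox6a2 was under the level limit in Ly6Chigh cells at both times.

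Marker lists named for other cell types moved with time as well. Erythroid and platelet markers were lower at day 4 than at day 2 in both subsets, as most members were (4913 against 12134 in Ly6Clow and 909.5 against 3815 in Ly6Chigh cells). Of the 6 genes of that list found in the table, those at 50 or more in a macrophage group were Pf4 and Ppbp, both chemokine genes known from platelets. The same list summed to 8484 to 10852 in BMDM with RvD2 and 7574 to 8816 in untreated BMDM. A high sum of this list was thus not particular to injured muscle. Pf4 had a log2 level of 12.24 in Ly6Clow and 9.74 in Ly6Chigh cells at day 4, and 13.54 in Ly6Clow and 11.71 in Ly6Chigh cells at day 2. Skeletal muscle markers were higher at day 4 than at day 2 in both subsets (1797 against 383 in Ly6Clow and 1041 against 309 in Ly6Chigh cells). Fibroblast markers were higher at day 4 too, at 23710 against 244 in Ly6Chigh cells and 1708 against 79.7 in Ly6Clow cells. The part of these other cells in the members' values was not tested.

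Between the subsets, Ly6Clow cells held slightly more of most members than Ly6Chigh cells at each time. At day 2, 64 of 78 members were higher in Ly6Clow cells (82.1%, against 49.8% of 11275 genes), with a median log2 ratio of 0.19 against -0.00 for all genes. At day 4, 65 of 78 were higher (83.3%, against 51.1% of 11764 genes), with a median of 0.11 against 0.01. Cox7a1 was the one member called at day 2 (5.9% of all genes were called higher and 5.46% lower), and 0 were called at day 4 (2.98% higher and 4.22% lower). In muscle Cox7a1 reached the level of 50 only in Ly6Clow cells at day 2, the group in which it was called higher, so this call is not independent of how members were chosen. The 4 macrophage groups could be put in order: 61 of 79 members were highest in Ly6Clow cells at day 2 (77.2%, against 26.3% of all genes) and 57 of 79 were lowest in Ly6Chigh cells at day 4 (72.2%, against 22%). When columns were scaled to equal totals the members' median at day 4 was 0.01 and 42 of 78 were higher, while the median of all genes was -0.09, so that the members still stood 0.11 above it.

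Complex II had the largest median difference between subsets at both times, 0.45 at day 2 and 0.33 at day 4, with 4 of 4 genes higher in Ly6Clow cells each time. Sdhb, its iron-sulfur subunit, had 1766 normalised counts in Ly6Clow and 1418 in Ly6Chigh cells at day 4, and 2038 in Ly6Clow and 1561 in Ly6Chigh cells at day 2. The other medians at day 2 were 0.23 for complex I, 0.16 for complex III, 0.08 for complex IV and 0.19 for complex V. At day 4 they were 0.13 for complex I, 0.13 for complex III, 0.10 for complex IV and 0.06 for complex V. Ndufa5 had the highest ratio of complex I at day 2 (0.84), with 276 in Ly6Clow and 151 in Ly6Chigh cells, and was level at day 4 (0.03), with 199 in Ly6Clow and 195 in Ly6Chigh cells. At 1.5-fold, 5 of 78 members were higher in Ly6Clow cells at day 2 (6.41%, against 14.6% of all genes). Beside Cox7a1 and Ndufa5 these were Ndufs5, Ndufa12 and Ndufc1, accessory subunits of complex I, with ratios of 0.69, 0.63 and 0.60. Marker lists differed between the subsets in both directions. Fibroblast, T and NK cell, dendritic cell, endothelial and monocyte markers were lower in Ly6Clow than in Ly6Chigh cells at both times. Fibroblast markers, for example, stood at 1708 in Ly6Clow and 23710 in Ly6Chigh cells at day 4, and at 79.7 and 244 at day 2. Other lists were higher in Ly6Clow cells. Dividing-cell markers summed to 2253 in Ly6Clow and 1207 in Ly6Chigh cells at day 4, and 1488 in Ly6Clow and 244 in Ly6Chigh cells at day 2, and skeletal muscle markers differed in the same direction at both times. Erythroid and platelet markers did so as well and, like most members, were highest of the 4 macrophage groups in Ly6Clow cells at day 2 (12134) and lowest in Ly6Chigh cells at day 4 (909.5). The part of these cells in the members' values was not tested.

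Tissue-specific forms of complex IV were low but patterned. Cox7a1, the heart and skeletal muscle form of subunit 7A, had 36.7 normalised counts in Ly6Clow and 17.3 in Ly6Chigh cells at day 4, and 73.2 in Ly6Clow and 26.2 in Ly6Chigh cells at day 2. In neutrophils Cox7a1 was at 1.52. Per kilobase this made Cox7a1 6.92% of the summed Cox7a1 and Cox7a2 level in Ly6Clow and 3.45% in Ly6Chigh cells at day 4, and 8.90% in Ly6Clow and 3.8% in Ly6Chigh cells at day 2. Neutrophils stood at 0.297% and untreated BMDM at 1.69 ± 0.70% (SD, n = 3). Muscle genes were present in these columns. Of the 14 skeletal muscle markers, 10 were above 0 in Ly6Clow and 8 in Ly6Chigh cells at day 2, while 14 were above 0 in Ly6Clow and 13 in Ly6Chigh cells at day 4. At 50 or more were 2 in Ly6Clow and 1 in Ly6Chigh cells at day 2, and 8 in Ly6Clow and 5 in Ly6Chigh cells at day 4. The list summed to 383 in Ly6Clow and 309 in Ly6Chigh cells at day 2, and to 329 to 368 in the BMDM libraries. Acta1, skeletal muscle actin, was at a log2 level of 9.48 in Ly6Clow and 8.77 in Ly6Chigh cells at day 4, and 8.18 in Ly6Clow and 7.94 in Ly6Chigh cells at day 2. Ckm, the muscle creatine kinase, was at 6.44 in Ly6Clow and 5.21 in Ly6Chigh cells at day 4, and 2.92 in Ly6Clow and 1.61 in Ly6Chigh cells at day 2. In neutrophils Acta1 was at 8.95 and Ckm at 1.91. The part of muscle RNA in the Cox7a1 values was not tested.

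Cox6a2, the muscle form of subunit 6A, had 52.6 normalised counts in Ly6Clow and 48.6 in Ly6Chigh cells at day 4, and 40.1 in Ly6Clow and 7.0 in Ly6Chigh cells at day 2. In neutrophils it was at 1.21. Its gene overlaps Itgad, a macrophage integrin gene on the opposite strand, and reads of the 2 genes cannot be told apart because strand was not marked. Itgad was at a log2 level of 9.34 in neutrophils, 8.10 in Ly6Clow and 7.94 in Ly6Chigh cells at day 4, and 5.35 in Ly6Clow and 5.99 in Ly6Chigh cells at day 2. Both genes were higher at day 4 than at day 2 in both subsets, and in neutrophils Itgad was at its highest and Cox6a2 at its lowest. Cox6a2 was a member only through its level in Ly6Clow cells at day 4, so its direction there is not independent of that choice. The part of shared reads was not tested. Cox4i2, the form of subunit 4 known from lung and low oxygen, stayed under the level limit in all columns and had at most 14.4 normalised counts in muscle, in neutrophils. Cox8b, another muscle form, was at most 3.16.

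The c ring of ATP synthase, the rotor that protons turn, is made from 3 genes that encode the same mature protein. Atp5g3 supplied most of the summed level per kilobase, 86.3% in neutrophils, 74.3% in Ly6Clow and 76.0% in Ly6Chigh cells at day 4, and 80.7% in Ly6Clow and 81.7% in Ly6Chigh cells at day 2. Atp5g2 supplied 9.92% in neutrophils, 22.8% in Ly6Clow and 20.8% in Ly6Chigh cells at day 4, and 15.4% in Ly6Clow and 14.2% in Ly6Chigh cells at day 2. Atp5g1 supplied the rest. The shares depend on the transcript lengths used, 2675.5 bases for Atp5g1, 586 for Atp5g2 and 718.5 for Atp5g3. Without scaling to length, Atp5g1 stood above Atp5g2 in neutrophils and in both subsets at day 2, and below it at day 4. The share of Atp5g2 was larger at day 4 in both subsets. Its own log2 ratio of day 4 over day 2 was -0.08 in Ly6Clow and 0.10 in Ly6Chigh cells, and that of Atp5g3 was -0.76 in Ly6Clow and -0.56 in Ly6Chigh cells. Atp5g1 was lower still, and in Ly6Clow cells it was called, with 236 normalised counts at day 4 and 496 at day 2 (a log2 ratio of -1.04, with -0.81 in Ly6Chigh cells). In BMDM the shares were 82.4 ± 0.7% with RvD2 and 82.6 ± 1.2% without for Atp5g3, and 13 ± 0.3% with RvD2 and 13 ± 1.2% without for Atp5g2 (SD, n = 3 each). Paralogs this close can share reads, so the split between these genes is uncertain.

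**Figure D4:**
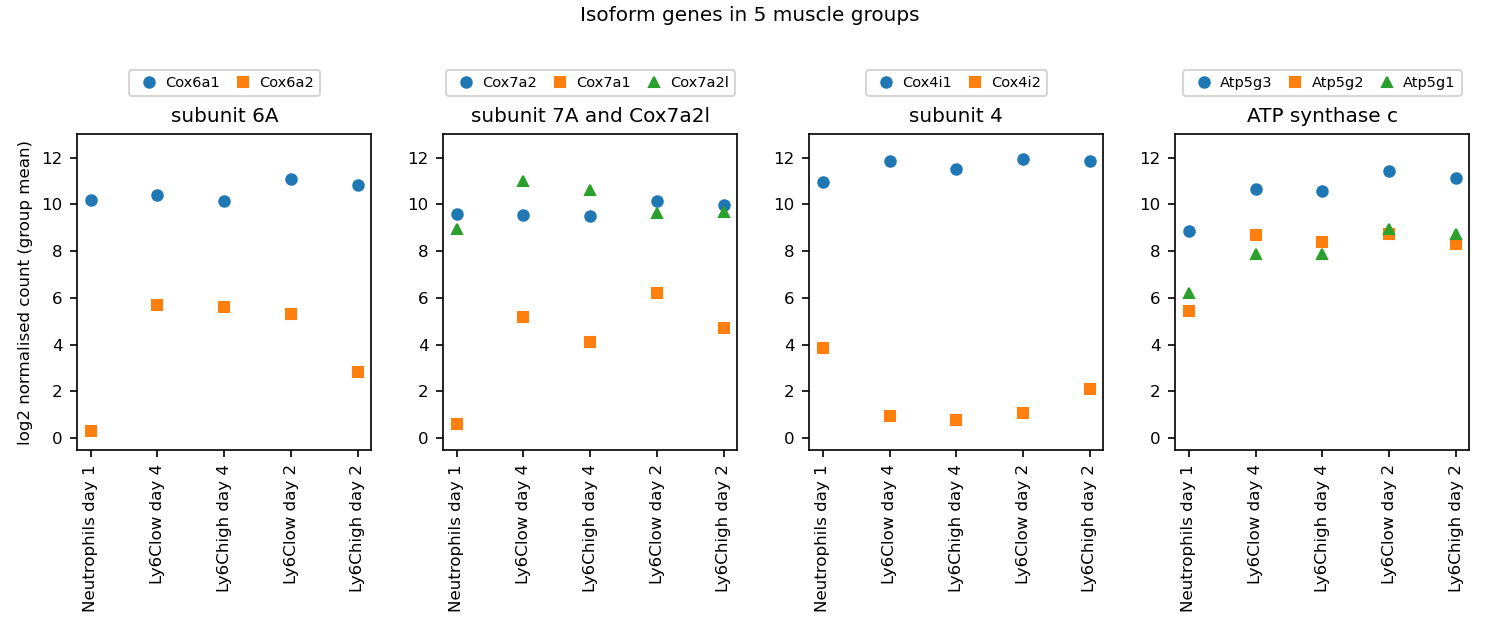
Log2 normalised counts (group means) of isoform genes in the 5 muscle groups, for subunits 6A, 7A and 4 of complex IV and the c subunit of ATP synthase. Cox7a2l is higher at day 4 and Cox7a2 lower, Cox6a2 and Cox7a1 sit far below their widely expressed partners, and Atp5g2 keeps its level at day 4 where Atp5g3 and Atp5g1 are lower.

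Neutrophils held less of the respiratory chain than macrophages, and by amounts that differed widely from gene to gene. Against the mean of the 4 macrophage groups, 72 of 77 members were lower (93.5%, against 49.3% of 12209 genes), with a median log2 ratio of -1.06 against 0.03 for all genes. Of these, 41 members were called lower (53.2%, against 30.2% of all genes) and 0 higher (29.5% of all genes). Neutrophils were the lowest of the 5 groups for 66 of 79 members (83.5%, against 41.2% of 12839 genes). The neutrophil column sums to 26.0 M and no macrophage column to more than 12.8 M. On equal totals the members' median was -2.06 and that of all genes -1.09. Relative to all genes the members' median was -1.09 as deposited and -0.97 on equal totals. Macrophage markers at 24076 normalised counts in the neutrophil column, with a log2 level of 13.42 for Csf1r and 11.07 for Emr1 (F4/80), lie beside these values, and their part was not tested.

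Complexes V and I were lowest in neutrophils, with median log2 ratios of -1.11 and -1.10, then complex III (-1.06), complex IV (-0.86) and complex II (-0.75). The lowest single genes were accessory subunits of complex I. Ndufa5 had 5.71 normalised counts in neutrophils, against 199 in Ly6Clow and 195 in Ly6Chigh cells at day 4 and 276 in Ly6Clow and 151 in Ly6Chigh cells at day 2, a log2 ratio of -3.78. Ndufc2, a membrane-arm subunit, had 47.3 in neutrophils against 521 to 640.1 in macrophages (-3.42). Ndufa9, near the ubiquinone site, had 92.3 against 725 to 1192 (-3.12), and Ndufa11, which ties the membrane arm together, had 36.0 against 276 to 514 (-3.11). Other accessory subunits of the same complex were level: Ndufa7 had 661 in neutrophils against 500.1 to 753 (0.08) and Ndufb9 863 against 684 to 1081 (0.03). The 7 core subunits lay between, from -1.74 (Ndufv2) to -0.46 (Ndufs7).

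In complex V all 3 c ring genes were called lower in neutrophils, at -2.85 for Atp5g2, -2.12 for Atp5g3 and -2.07 for Atp5g1. Atp5b, the beta subunit, had a ratio of -0.51 and Atp5a1, the alpha subunit that pairs with it, -1.31. In complex III the ratios ran from -2.12 (Uqcrb, a small subunit at the ubiquinone site) to -0.19 (Uqcrq). Complex II was split as before, with -0.34 for Sdha, -0.88 for Sdhb, -0.61 for Sdhd and -1.66 for Sdhc. The members above 0 were Cox8a, Atp5j, Ndufa7, Atp5l and Ndufb9. Cox8a, a small subunit of complex IV, had 2537 normalised counts in neutrophils, against 1561 in Ly6Clow and 1414 in Ly6Chigh cells at day 4 and 1715 in Ly6Clow and 1681 in Ly6Chigh cells at day 2 (0.67). On equal totals 0 of 77 members were above 0, Cox8a included.

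Each macrophage group was also set against neutrophils on its own. Members called lower in neutrophils numbered 35 of 78 against Ly6Clow cells at day 4 (30.6% of all genes were) and 31 of 77 against Ly6Chigh cells at day 4 (29.9% of all genes). Against Ly6Clow cells at day 2 they numbered 46 of 78 (30.5% of all genes), and against Ly6Chigh cells at day 2 40 of 77 (27.6% of all genes). These 4 comparisons share the neutrophil samples and are given side by side only.

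In cultured macrophages, no member passed the test after 4 h of RvD2. With limma (Benjamini-Hochberg adjustment over 15239 genes, threshold 0.05), 0 of 78 members passed, against 1.86% of all genes (0.794% higher and 1.06% lower). At an unadjusted p under 0.05 there were 3 members (3.85%, against 15.6% of all genes), namely Ndufv2, Cox4i1 and Ndufa5. The members' log2 fold changes ran from -0.14 (Ndufb2) to 0.26 (Ndufa5) with a median of 0.01. The 95% interval lay within 1 log2 unit of 0 for 77 of 78 members and within 0.5 for 75. Atp5s, at the edge of detection, had the widest, from -0.66 to 1.08. The labels do not give separate cultures or animals, and the p-values then cover only differences among these libraries, which may be technical.

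By complex the medians were 0.02 for complex I, -0.01 for complex II, 0.05 for complex III, -0.02 for complex IV and 0.02 for complex V. For 5 members the treated and untreated libraries did not overlap (6.41%, against 21% of all genes). Of these, 2 were higher with RvD2 (9.29% of all genes) and 3 lower (11.7% of all genes). Ndufv2, a core subunit of complex I, had log2 levels of 9.58, 9.73 and 9.57 with RvD2, against 9.47, 9.47 and 9.31 in untreated cells. Its log2 fold change was 0.21 (SE 0.07), with a limma adjusted p of 0.20. Ndufa6 had 8.95, 9.01 and 9.03 with RvD2, against 8.84, 8.91 and 8.87 in untreated cells. Its fold change was 0.13 (SE 0.06, limma adjusted p = 0.37). For both genes every treated library was above every untreated one.

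Cox4i1, the widely expressed form of subunit 4 of complex IV, had log2 levels of 11.47, 11.47 and 11.49 with RvD2, against 11.57, 11.57 and 11.60 in untreated cells. Its log2 fold change was -0.10 (SE 0.05), with a limma adjusted p of 0.31. Ndufb2 and Ndufa9 were the other members whose treated libraries all lay lower, with log2 fold changes of -0.14 and -0.08. Ndufa5 had the largest fold change, with 8.33, 8.56 and 8.35 with RvD2, against 8.17, 8.35 and 7.93 in untreated cells, and its groups overlapped. Cox7a2l had 9.59, 9.61 and 9.83 with RvD2, against 9.68, 9.80 and 9.88 in untreated cells (log2 fold change -0.11, SE 0.08, limma adjusted p = 0.61). Its 95% interval ran from -0.29 to 0.08.

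**Figure D5:**
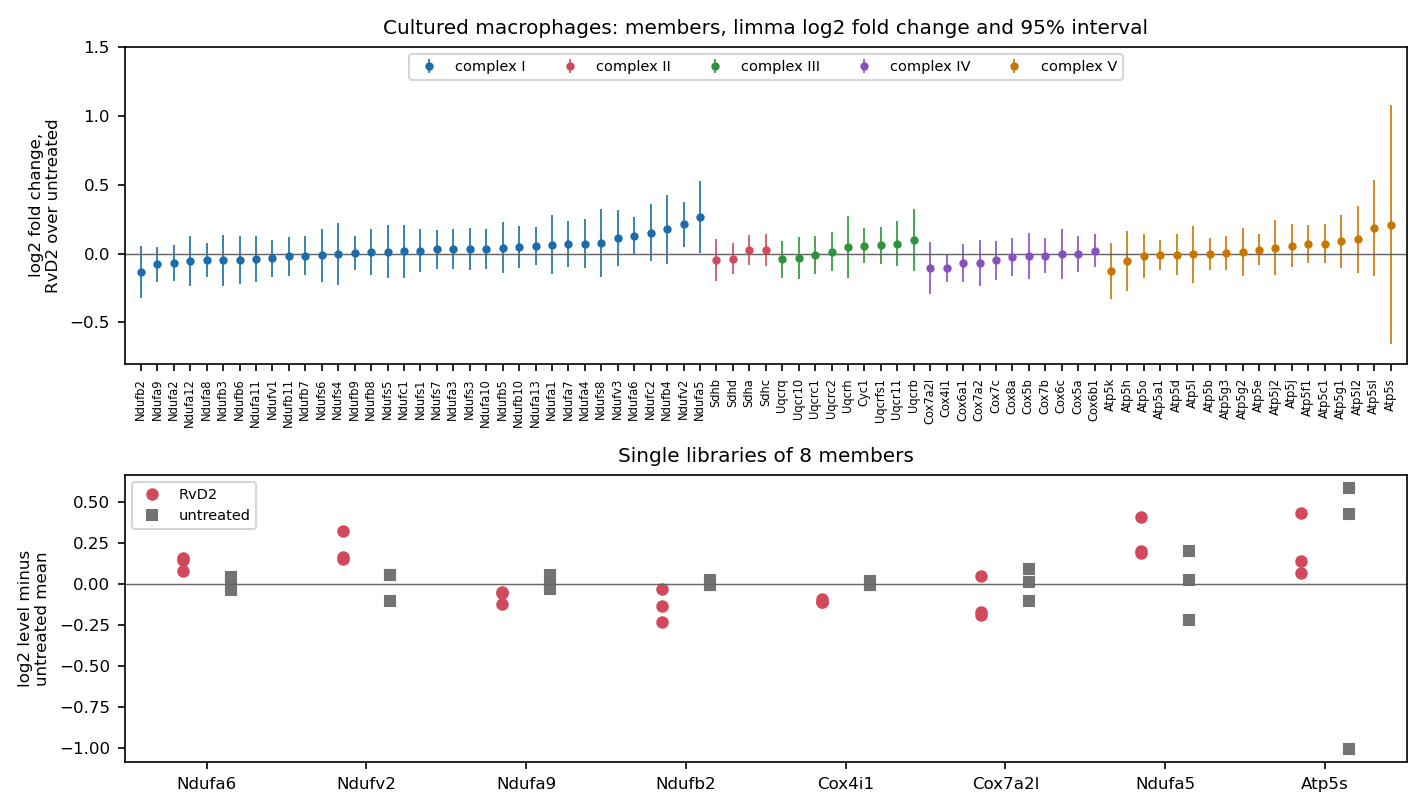
Upper panel, limma log2 fold change with 95% interval of 77 of the 78 members in BMDM, RvD2 over untreated, ordered by complex and size; lower panel, single libraries of 8 members as log2 level minus the untreated mean, RvD2 (circles) left of untreated (squares). Most intervals cross 0 and lie within 0.5, and Atp5s has the widest spread, with 1 low untreated library.

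Marker lists differed between BMDM libraries as well. Neutrophil markers summed to 4799, 6166 and 9583 normalised counts with RvD2, against 4625, 7276 and 15453 in untreated libraries. Fibroblast markers stood at 34948 to 55006 with RvD2 and 39299 to 45865 in untreated libraries, and dividing-cell markers at 5285 to 5643 with RvD2 and 6986 to 8445 in untreated libraries. The part of these in the members' values was not tested.

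Other mitochondrial gene lists were read beside the members in the same comparisons. Genes of the tricarboxylic acid cycle, which feeds complexes I and II, had medians of -0.38 in Ly6Clow and -0.35 in Ly6Chigh cells for day 4 over day 2, with 2 of 16 called lower in Ly6Clow cells, Mdh2 (-1.08) and Idh3a (-1.03). Mitochondrial ribosomal protein genes, whose products make the subunits encoded in mitochondrial DNA, had medians of -0.37 in Ly6Clow and -0.18 in Ly6Chigh cells. Of these, 2 of 76 were called lower in Ly6Clow and 1 of 76 in Ly6Chigh cells. Of all genes, 3.24% were called lower in Ly6Clow and 3.74% in Ly6Chigh cells. Electron carriers and entry points had medians of -0.47 in Ly6Clow and -0.28 in Ly6Chigh cells. Among them Cycs, which encodes cytochrome c, was called lower in Ly6Clow cells (-1.06) and was at -0.74 in Ly6Chigh cells.

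Assembly factors of the complexes stood nearer to all genes, with medians of -0.21 in Ly6Clow and -0.03 in Ly6Chigh cells. Surf1, which helps to build complex IV, was higher at day 4, with ratios of 0.87 in Ly6Clow and 1.06 in Ly6Chigh cells. It was the 1 factor of 29 called in Ly6Chigh cells (9.67% of all genes higher and 3.74% lower). Among 12 regulators in Ly6Clow and 11 in Ly6Chigh cells, Hif1a, the factor that answers low oxygen, was at -0.78 in Ly6Clow and was called lower in Ly6Chigh cells (-1.24). Alternative isoforms and brakes, 4 genes, had medians of -0.03 in Ly6Clow and -0.15 in Ly6Chigh cells with 0 called.

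In neutrophils, where 30.2% of all genes were called lower and 29.5% higher, 5 of the 6 lists lay below macrophages, by a median of -0.89 for the tricarboxylic acid cycle (7 of 16 called lower, 0 higher), -1.37 for mitochondrial ribosomal proteins (46 of 76 lower, 1 higher), -0.93 for assembly factors (14 of 30 lower, 2 higher), -1.07 for electron carriers and entry points (4 of 7 lower, 1 higher) and -0.63 for alternative isoforms and brakes (1 of 4 lower, 0 higher). Regulators were mixed, with a median of 0.55, 5 of 11 called higher and 4 lower. Gabpb1, a subunit of the factor GABP, was at 3.75, while Myc (-3.39) was among those called lower. Between subsets the mitochondrial ribosomal genes had medians of 0.23 at day 2 and 0.08 at day 4, close to the members. In BMDM 0 genes passed limma in 5 of the 6 lists. Among 13 regulators 1 passed, Hif1a, with a log2 fold change of 0.33 (SE 0.06, limma adjusted p = 0.023), and Ppargc1b, a coactivator of respiratory genes, had -1.2 (SE 0.41, limma adjusted p = 0.20).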

How the data were processed

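Poly-A RNA was sequenced from sorted muscle leukocytes and from BMDM. A TruSeq kit that marks no strand was used, with HiSeq sequencing, per the labels' protocols. The build mm10, DESeq and TopHat2 2.0.7 are named in the submitters' processing notes, with no roles given. The authors deposited log2 values of normalised counts, with values under 1 listed as 0. In muscle each column is the authors' mean of log2 values over a group, so a normalised count given here is 2 to that power, a geometric mean. Each table lists 38087 genes, and 2 cells that hold a date in place of a value, both of genes that are no members, were treated as missing. The depth of the muscle libraries is unknown.

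BMDM were tested with limma 3.58.1 in R 4.3.3 with a mean-variance trend, two-sided, over 15239 genes averaging at least 10 normalised counts, with Benjamini-Hochberg adjustment at 0.05. A test on simulated data was run first. Muscle ratios were computed in Python 3.11.15 with 10 added. Coordinates and lengths (the median over coding transcripts) came from GENCODE M21 (GRCm38/mm10), promoters from RefSeq GRCm38.p6. Of the 80 members, 36 overlap another gene. Members, gene lists and tests were chosen with earlier results of these data known. The genes named are those called, the extremes of each complex, and isoform families. Values of 1 member are not reported here, though the counts and medians include it. Alternatives were another pseudocount, scaling, centring, level limit and fold, gene exclusions, and for BMDM other scalings, no filter, no trend, a replicate block and leaving out each library. BMDM columns sum to 12.4 to 12.8 M normalised counts, and read depth is unknown there too.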

Additional observations from a re-analysis of the deposited data

How the results depend on the processing

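No paired analysis was possible in muscle because the columns are group means. In BMDM the fit with a replicate block passed 492 genes higher and 574 lower, against 121 and 162 without it, and 0 members in both, with a smallest member adjusted p of 0.063. Same-numbered libraries had correlations of 0.29, 0.02 and 0.05 in their deviations, and differently numbered ones from -0.26 to 0.19. The labels do not say what the numbers pair, so the block was kept as an alternative. Without a mean-variance trend 22 genes were higher and 27 lower, and with no filter 53 and 84, again with 0 members. Leaving out each library in turn gave 32 to 140 genes higher and 47 to 150 lower, 0 members each time and member medians from -0.01 to 0.02. Over all alternatives the smallest adjusted p of a member lay between 0.063 and 0.44.

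In muscle, medians kept their direction under every alternative run. On equal totals the median was -2.06 in neutrophils, with 73 of 77 members called lower (51.9% of all genes, against 30.2% as deposited). For Ly6Clow over Ly6Chigh at day 4 the median was 0.012. For day 4 over day 2 in Ly6Chigh cells 3 of 78 members were called higher (11.7% of all genes) and 0 lower (3.18%). At 1.5-fold, 27 of 79 members were called in Ly6Clow cells for day 4 over day 2. Of these, 25 were lower (12.7% of all genes) and 2 higher (15.6%). In Ly6Chigh cells 15 of 77 were called, 13 lower (11.4% of all genes) and 2 higher (17.9%). Between subsets at day 2, 5 of 78 were higher at 1.5-fold (14.6% of all genes) and 0 lower (12.1%). At 2-fold, a level limit of 200 left 0 of 75 called there (4.04% of all genes higher and 5.69% lower). Chosen after seeing the data: without Atp5s, Atp5sl and Atp5l2, 0 were called for Ly6Chigh cells over time (9.67% of all genes higher and 3.74% lower). Without members that overlap another gene, 20 of 42 were called lower in neutrophils, against 41 of 77 with them (30.2% of all genes). Against single groups the neutrophil median was -0.94 (Ly6Clow day 4), -0.80 (Ly6Chigh day 4), -1.27 (Ly6Clow day 2) and -1.05 (Ly6Chigh day 2).

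Muscle values have no replicate error, so the evenness of the small shifts over members, which share libraries, is a description.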
